A study of Mus musculus with 7 samples.

Results

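The 50 genes described here encode the machinery that carries a cell through mitosis: the mitotic kinases, the cyclins and their phosphatases, the spindle checkpoint and anaphase regulators, the chromosomal passenger complex, centromere and kinetochore proteins, spindle motors, cytokinesis proteins, and condensins with other proteins of the mitotic chromosome. They were chosen by name from the 20643 genes of the table, and each of the 50 had a value in all 7 libraries. They were followed in EGFP+ prospermatogonia, the germ cells of the fetal mouse testis, in WT fetuses and in 2 homozygous mutants of the H19/Igf2 imprinting control region. Against WT, 28 of the 50 were lower and 2 higher in H19Ter/H19Ter prospermatogonia (limma, adjusted p under 0.05), where 11.0% of all genes were lower and 14.1% higher. In H19Ter+neo/H19Ter+neo prospermatogonia, 34 were lower and 5 higher, where 26.7% of all genes were lower and 27.7% higher. In H19Ter/H19Ter the number of members called fell strongly without WT replicate 2, and so did the number over all genes. The median log2 difference of the members went from -0.32 to -0.25.

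Entry into mitosis is driven by the kinase Cdk1 bound to cyclins, and exit by the anaphase-promoting complex, a ubiquitin ligase that marks cyclin B and securin for destruction. In between, kinetochores attach chromosomes to the spindle, the spindle checkpoint holds back the ligase until every kinetochore is attached, and the chromosomal passenger complex corrects wrong attachments before it moves to the midzone for cytokinesis. Male germ cells of the mouse leave the mitotic cycle in the fetal testis and stay in arrest until after birth, and the stage studied here falls in the period in which this arrest is being established.

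The 7 total RNA-seq libraries came from cells sorted at 15.5 dpc (the source name of the labels gives 15 dpc). The 2 WT libraries were replicates 1 and 2. Replicates 3 and 4 were homozygous for H19Ter, an allele with a transcription terminator inserted before the imprinting control region. Replicates 5, 6 and 7 were homozygous for H19Ter+neo, the targeted allele from which H19Ter was derived, which still holds the Pgkneo selection cassette beside the terminator. The question of the design was what truncating a broad transcript before that region does in these cells, and the comparison of both mutants is a comparison of the alleles with and without the cassette. Both alleles go back to 1 embryonic stem cell line of the 129S1 strain, and the cassette was removed with an Hprt-Cre line. Cells were sorted by EGFP from the TgOG2 transgene, which is driven by the Pou5f1 promoter and comes from a mixed B6 and CBA line. Homozygous fetuses were bred from parents of the same genotype, and the sources used here give neither the matings of WT nor the litter or pool behind a library. Genotype, parentage and strain background cannot be told apart. The paper calls the libraries of sorted prospermatogonia biological replicates, without tying a library to a litter. Its general statement on uterus-mates from several litters names female and male fetuses and does not name these sorted cells. The p-values therefore measure the spread between these libraries.

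Between 37.5 and 51.2 M read pairs were counted to genes in WT and H19Ter/H19Ter libraries, and 84.1 to 87.3 M in H19Ter+neo/H19Ter+neo libraries. The cells matched their label. The germ cell markers, 14 of 14 with a value, summed to 4929 to 5109 CPM (counts per M read pairs, after the authors' scaling) in WT, 4785 to 4955 CPM in H19Ter/H19Ter and 5604 to 5727 CPM in H19Ter+neo/H19Ter+neo. Against WT, 3 of the 14 were called higher and 4 lower in H19Ter/H19Ter, where 14.1% of all genes were higher and 11.0% lower. In H19Ter+neo/H19Ter+neo 7 were higher and 3 lower, where 27.7% of all genes were higher and 26.7% lower. The RNA helicase gene Ddx4 was at 705 and 772 CPM in WT, 602 and 617 CPM in H19Ter/H19Ter, and 659, 664 and 666 CPM in H19Ter+neo/H19Ter+neo. Dnmt3l, the cofactor of de novo DNA methylation in germ cells, was at 43.2 and 35.7 CPM in WT, 94.3 and 85.9 CPM in H19Ter/H19Ter, and 79.4, 100.0 and 93.9 CPM in H19Ter+neo/H19Ter+neo, and the piRNA pathway gene Piwil4 at 266 and 248 CPM in WT, 346 and 367 CPM in H19Ter/H19Ter, and 401, 482 and 510.5 CPM in H19Ter+neo/H19Ter+neo. Nanos2, which encodes an RNA-binding protein of male germ cells, was at 56.4 and 59.3 CPM in WT, 41.3 and 39.9 CPM in H19Ter/H19Ter, and 27.0, 33.5 and 20.9 CPM in H19Ter+neo/H19Ter+neo. All 5 mutant libraries thus lay above both WT libraries for Dnmt3l and Piwil4, as they did for 24.1% of all genes. They lay below both for Ddx4 and Nanos2, as they did for 23.8% of all genes. Sertoli markers (13 of 15 with a value) summed to 26.3 to 27.2 CPM in WT, 28.3 to 33.9 CPM in H19Ter/H19Ter and 20.8 to 32.1 CPM in H19Ter+neo/H19Ter+neo. Endothelial markers (7 of 8) summed to 28.5 CPM in both WT libraries, 42.0 to 42.2 CPM in H19Ter/H19Ter and 40.5 to 46.1 CPM in H19Ter+neo/H19Ter+neo. Leydig markers (8 of 10) summed to 75.8 to 86.9, 60.8 to 78.6 and 43.7 to 80.8 CPM in the same order of genotypes, most of it from Nr5a2 and Fdx1, which are not particular to that cell. Interstitial and peritubular markers (12 of 12) summed to 408 to 423, 358 to 425 and 252 to 304 CPM, most of it from Ptch1. Macrophage and leukocyte markers (3 of 8) reached at most 7.09 CPM in a library and the erythroid list (1 of 8) at most 5.82 CPM. No marker with a value was at 0 in a library. Pou5f1, whose promoter drives the sorted EGFP, was at 257 and 272 CPM in WT, 249 and 249.7 CPM in H19Ter/H19Ter, and 171, 185 and 148 CPM in H19Ter+neo/H19Ter+neo. The part of these differences in the results below was not tested.

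Promoters of genes that peak in mitosis are known for a pair of sequence elements, the cell cycle genes homology region (CHR), bound by the MuvB complexes, and the CCAAT box, bound by NF-Y. They were looked for in the RefSeq promoters of GRCm38.p6, which run from 250 bases before to 50 bases after the transcription start. Of the 50 members, 41 have an entry there. TTTGAA or TTCGAA, the CHR letters searched on both strands, were present in 32 of the 41, against 21.7% of 27025 gene symbols with promoters of the same length. CCAAT on either strand was present in 31 of the 41, against 41.1% of symbols, and both elements in 28 of the 41, against 8.61%. The E2F-type letters TTCGCGC or TTGGCGC were present in 7 of the 41, against 4.47%. These are matches of letters, not measured binding sites.

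The next 6 sequences show the pair of elements in 1 member from each of 6 roles, those with the largest change that hold both within the 180 bases from 150 before to 30 after the start. Capitals mark the CHR, CCAAT and E2F-type letters on either strand. These 6 were taken from members already called with the largest differences, so that they were called follows from the choice. Of the 6, 5 were lower in both mutants, and Cdc25b was higher in both.
Mki67: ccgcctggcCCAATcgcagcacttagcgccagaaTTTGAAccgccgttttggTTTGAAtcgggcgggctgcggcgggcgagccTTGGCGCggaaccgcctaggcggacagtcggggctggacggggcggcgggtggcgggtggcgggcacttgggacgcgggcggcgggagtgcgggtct
Cdc25b: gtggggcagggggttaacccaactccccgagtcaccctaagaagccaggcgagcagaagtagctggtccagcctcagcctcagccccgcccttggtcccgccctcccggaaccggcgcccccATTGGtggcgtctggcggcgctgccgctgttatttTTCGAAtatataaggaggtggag
Ube2c: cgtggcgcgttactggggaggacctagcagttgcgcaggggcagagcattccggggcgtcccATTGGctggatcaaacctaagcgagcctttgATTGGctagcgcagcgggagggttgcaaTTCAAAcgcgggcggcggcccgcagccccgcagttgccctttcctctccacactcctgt
Prc1: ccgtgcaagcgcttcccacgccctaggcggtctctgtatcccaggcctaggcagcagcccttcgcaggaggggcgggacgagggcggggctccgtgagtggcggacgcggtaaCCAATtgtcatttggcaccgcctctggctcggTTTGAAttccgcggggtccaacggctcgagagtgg
Cenpa: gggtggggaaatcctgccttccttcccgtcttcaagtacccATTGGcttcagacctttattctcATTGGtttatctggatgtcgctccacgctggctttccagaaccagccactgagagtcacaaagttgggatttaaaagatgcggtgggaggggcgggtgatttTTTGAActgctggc
Cdk1: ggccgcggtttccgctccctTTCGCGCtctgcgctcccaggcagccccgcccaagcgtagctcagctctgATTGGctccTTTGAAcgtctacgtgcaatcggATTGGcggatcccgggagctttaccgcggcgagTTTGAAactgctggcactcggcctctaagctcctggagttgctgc
On GRCm38 the windows lie at chr7:135716350-135716529 (reverse strand) for Mki67, chr2:131186798-131186977 (forward strand) for Cdc25b, chr2:164769779-164769958 (forward strand) for Ube2c, chr7:80294301-80294480 (forward strand) for Prc1, chr5:30666736-30666915 (forward strand) for Cenpa and chr10:69352883-69353062 (reverse strand) for Cdk1. The CHR letters begin 5 bases before the start in Prc1, 29 before it in Ube2c, and at base 8 and base 17 after it in Cdc25b and Cenpa. Mki67 and Cdk1 each hold 2 CHR matches and 1 E2F-type match in the window. Among the 28 members with both elements, 16 were lower and 1 higher in H19Ter/H19Ter, with a median log2 difference of -0.31, and 20 were lower and 3 higher in H19Ter+neo/H19Ter+neo (median -0.44). Among the 13 members whose promoter lacks 1 or both, 5 were lower and 1 higher in H19Ter/H19Ter (median -0.23), and 5 were lower and 2 higher in H19Ter+neo/H19Ter+neo (median -0.17). Of the 11999 genes at or above the level of the lowest member, 16.2% were lower in H19Ter/H19Ter and 36.0% in H19Ter+neo/H19Ter+neo. The difference between the sets with and without the pair was not tested. Anln and Mad2l1 are in the second set, and Cdc25b, which rose, is in the first.

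Levels between genes were compared as CPM per kb of exon, as the mean of the 7 libraries. The member with the highest level per length was Bub1 at 76.7, followed by Cenpf at 48.7, Smc4 at 47.4, Anln at 38.8, Top2a at 38.0 and Ccnb2 at 37.0. The lowest were Spc24 at 1.69, Cdc25c at 2.91 and Aurkb at 3.83. Bub1 lay at the 98.2nd percentile of genes by level per length and Spc24 at the 40.5th. In WT the level per length was 82.1 ± 3.56 for Bub1 and 60.7 ± 4.18 for Cenpf, both mean ± SD with n = 2, and these did not overlap. Those of Smc4 (54.5 ± 4.15), Ccnb2 (48.7 ± 5.39) and Top2a (45.5 ± 5.32), given the same way, lay within the sum of their SDs of the next in order. Transcripts of the mitotic machinery were present in every library of all 3 genotypes, and the smallest number of read pairs behind a value was 128, for Spc24.

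**Figure D1:**
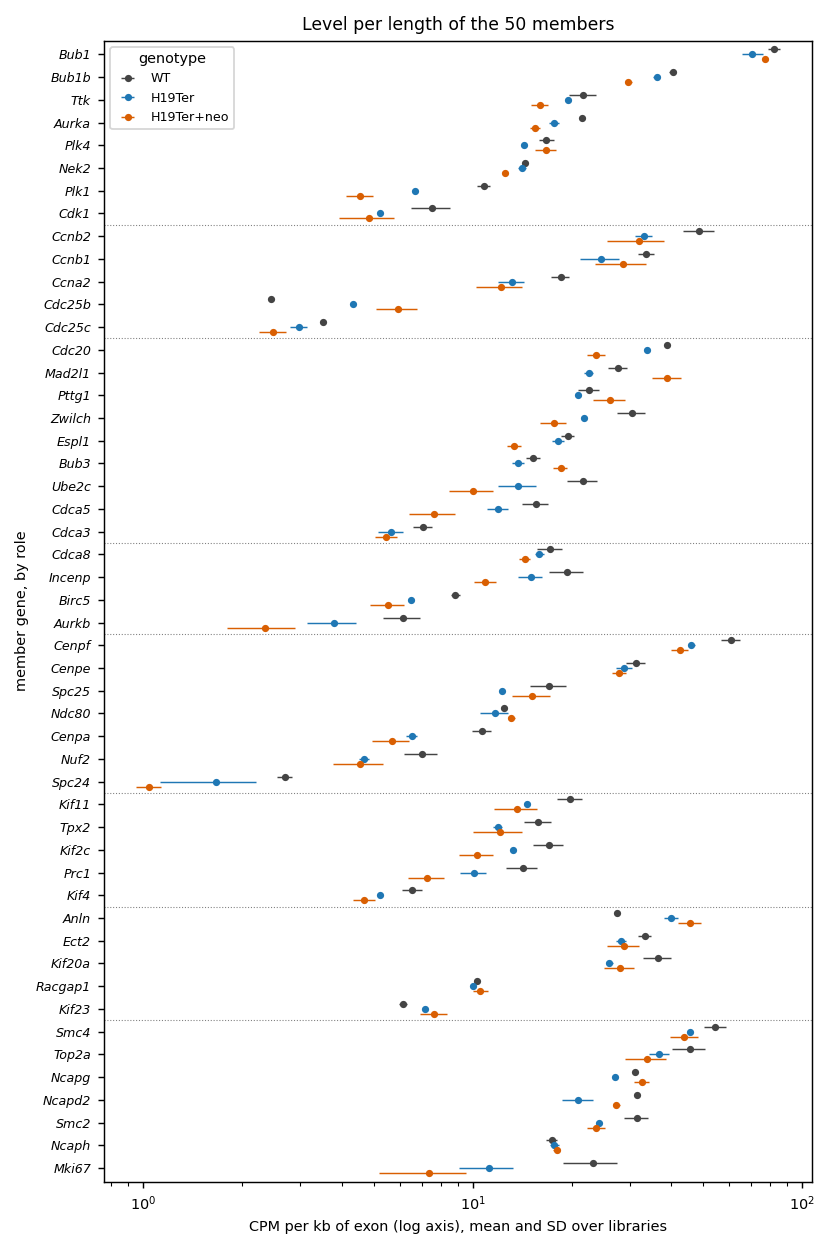
Level per length of each of the 50 members, as CPM per kb of exon on a log axis, grouped by role from the mitotic kinases at the top to the condensin group at the bottom. Points are means and bars SDs over 2 WT, 2 H19Ter/H19Ter and 3 H19Ter+neo/H19Ter+neo libraries; Bub1 is highest and Spc24 lowest.

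In H19Ter/H19Ter, 30 of the 50 members passed the test against WT, 28 lower and 2 higher. Beside the shares over all genes given above, 16.2% were called lower and 11.5% higher over the 11999 genes with a mean log2 CPM of at least 2.0, the level of the lowest member. The median log2 difference was -0.32 for the members and -0.01 for all genes. All libraries of H19Ter/H19Ter were below both WT libraries for 42 of the 50, against 35.0% of all genes. The count of calls rested on single libraries. Calls over all 20643 genes also fell in each of the fits that follow, from 5187 to 2858 without a mean-variance trend. The loss of calls was thus not particular to the members. Without WT replicate 2 it was 5 (Plk1, Cenpa and Ncapd2 lower, Cdc25b and Anln higher), without H19Ter/H19Ter replicate 4 it was 7, and without replicate 3 it was 12. Without WT replicate 1 it was 20, and without a mean-variance trend in the fit it was 5. Plk1, Cenpa, Ncapd2, Cdc25b and Anln kept their calls with each of the 7 libraries left out in turn. The median kept its sign, at -0.24 with every library scaled to the same total and -0.41 without WT replicate 1. In bulk RNA, fewer cells in mitosis and less of these transcripts in each cell cannot be told apart.

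In H19Ter+neo/H19Ter+neo, 39 members passed against the same 2 WT libraries, 34 lower and 5 higher. Of the 11999 genes at or above the level of the lowest member, 36.0% were lower and 22.9% higher. The median log2 difference was -0.44 for the members and 0.01 for all genes. All 3 libraries were below both WT libraries for 36 of the 50, against 35.2% of all genes. With 1 library left out in turn the number of members called lay between 30 and 42, and 28 of the 39 kept their call each time. The 11 that did not were Cdk1, Nek2, Bub3, Cdca3, Cdca8, Tpx2, Kif20a, Kif23, Smc4, Ncapd2 and Top2a. The lowest count was without WT replicate 2, where the median was -0.33.

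**Figure D2:**
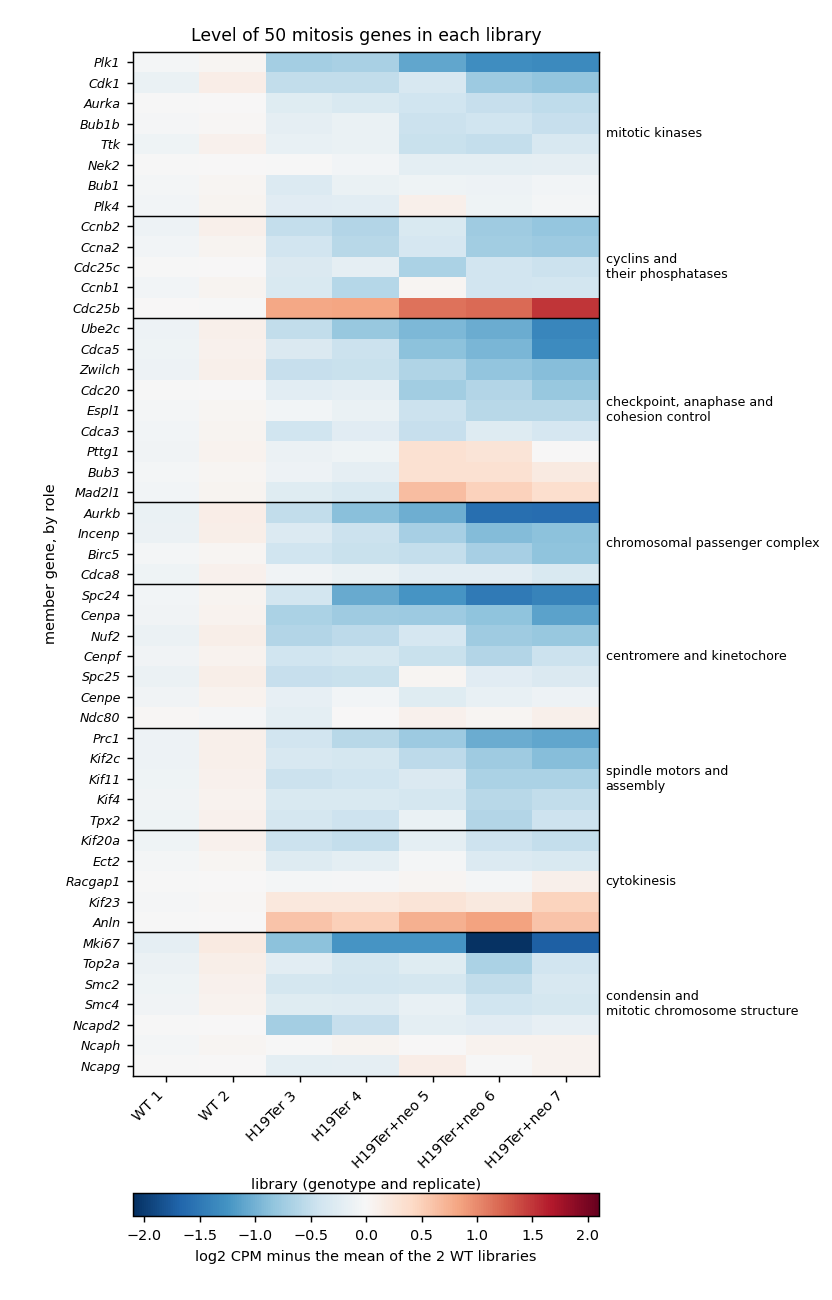
Log2 CPM of each member minus the mean of the 2 WT libraries, in each of the 7 libraries (columns), with members in rows by role. Blue is lower and red higher; most rows are blue in all 5 mutant libraries, Cdc25b, Anln and Kif23 are red, and Mad2l1 is blue in H19Ter/H19Ter and red in H19Ter+neo/H19Ter+neo.

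Of the 8 mitotic kinases, 4 were lower in H19Ter/H19Ter and 6 in H19Ter+neo/H19Ter+neo, and none was higher in either. The counts by role here and below stand beside the shares of the 11999 genes at or above the level of the lowest member. Those were 16.2% lower and 11.5% higher in H19Ter/H19Ter, and 36.0% lower and 22.9% higher in H19Ter+neo/H19Ter+neo. Plk1 (ENSMUSG00000030867, chromosome 7, 122159439 to 122169873, forward strand), which drives centrosome maturation and acts at kinetochores and in cytokinesis, was at 23.0 and 24.5 CPM in WT, 14.5 and 14.9 CPM in H19Ter/H19Ter, and 11.1, 9.59 and 9.39 CPM in H19Ter+neo/H19Ter+neo. The 3 genotypes did not overlap, and H19Ter+neo/H19Ter+neo was lowest. Its log2 difference from WT was -0.69 (standard error 0.11, limma adjusted p = 0.00304) in H19Ter/H19Ter and -1.24 (standard error 0.10, limma adjusted p = 1.71e-05) in H19Ter+neo/H19Ter+neo. Cdk1 (ENSMUSG00000019942, chromosome 10, 69335146 to 69352938, reverse strand), the kinase of mitotic entry, was at 33.6 and 40.7 CPM in WT, 25.9 and 25.8 CPM in H19Ter/H19Ter, and 29.2, 21.8 and 20.9 CPM in H19Ter+neo/H19Ter+neo. All mutant libraries were below both WT libraries, and those of the 2 mutants overlapped. The differences of Cdk1 from WT were -0.52 (standard error 0.15, limma adjusted p = 0.0339) and -0.64 (standard error 0.14, limma adjusted p = 0.00311). Bub1, a checkpoint kinase and the member with the highest level per length, was at 346 and 368 CPM in WT, 292 and 323 CPM in H19Ter/H19Ter, and 334, 331 and 343 CPM in H19Ter+neo/H19Ter+neo. It was lower in H19Ter/H19Ter, at -0.22 (standard error 0.07, limma adjusted p = 0.0381), a call lost without any 1 of the 4 WT and H19Ter/H19Ter libraries, without H19Ter+neo/H19Ter+neo replicate 6, with the same total per library, with voom, with the GC and length trend removed and with no mean-variance trend, and it did not pass in H19Ter+neo/H19Ter+neo at -0.09 (standard error 0.06, limma adjusted p = 0.239). Aurka, the centrosomal Aurora kinase, was lower in both mutants (-0.29 and -0.48). Ttk, which recruits the checkpoint to kinetochores, Bub1b, which is part of the checkpoint complex, and Nek2, which acts in centrosome separation, were lower in H19Ter+neo/H19Ter+neo (-0.43, -0.45 and -0.20) and did not pass in H19Ter/H19Ter (-0.14, -0.16 and -0.03). Plk4, the kinase of centriole duplication, did not pass in either (-0.23 and -0.01).

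Among the cyclins and their phosphatases, 3 of 5 were lower and 1 was higher in each mutant. Ccnb2 (ENSMUSG00000032218, chromosome 9, 70407692 to 70421547, reverse strand), which encodes cyclin B2 and has the highest level per length of this group, was at 68.8 and 80.4 CPM in WT, 52.7 and 48.4 CPM in H19Ter/H19Ter, and 59.8, 44.2 and 42.4 CPM in H19Ter+neo/H19Ter+neo. Both mutants lay below WT and overlapped each other. The differences were -0.56 (standard error 0.15, limma adjusted p = 0.0225) and -0.63 (standard error 0.14, limma adjusted p = 0.00302). Cdc25b (ENSMUSG00000027330, chromosome 2, 131186949 to 131198497, forward strand), which encodes a phosphatase that removes inhibitory phosphates from Cdk1, went the other way and was at 9.20 and 9.05 CPM in WT, 16.1 and 16.1 CPM in H19Ter/H19Ter, and 20.0, 20.7 and 25.8 CPM in H19Ter+neo/H19Ter+neo. Its 3 genotypes did not overlap, with WT lowest and H19Ter+neo/H19Ter+neo highest. It rose by 0.82 (standard error 0.13, limma adjusted p = 0.00235) in H19Ter/H19Ter and by 1.27 (standard error 0.12, limma adjusted p = 2.39e-05) in H19Ter+neo/H19Ter+neo. Cdc25c, which encodes a related phosphatase, was lower in H19Ter+neo/H19Ter+neo (-0.51) and did not pass in H19Ter/H19Ter (-0.25). Ccna2 (cyclin A2) was lower in both mutants (-0.50 and -0.61). Ccnb1 (cyclin B1) was lower in H19Ter/H19Ter (-0.46) and did not pass in H19Ter+neo/H19Ter+neo (-0.25). Ccnb1 has near-identical processed pseudogenes, Ccnb1-ps at 99.2% identity over 1287 bases and Gm12856 at 98.1% over 1294 bases, so its count is uncertain.

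The checkpoint, anaphase and cohesion group had 3 of 9 members lower in H19Ter/H19Ter, and 6 lower and 2 higher in H19Ter+neo/H19Ter+neo. Ube2c (ENSMUSG00000001403, chromosome 2, 164769898 to 164778822, forward strand), the ubiquitin-conjugating enzyme of the anaphase-promoting complex, was at 52.0 and 60.2 CPM in WT, 39.0 and 32.3 CPM in H19Ter/H19Ter, and 29.2, 27.1 and 21.7 CPM in H19Ter+neo/H19Ter+neo. Every H19Ter+neo/H19Ter+neo library was below every H19Ter/H19Ter library, which in turn were below WT. Its log2 differences were -0.66 (standard error 0.14, limma adjusted p = 0.0105) and -1.12 (standard error 0.13, limma adjusted p = 8.98e-05). Cdca5, which encodes sororin, a protein that stabilises cohesin on chromosomes, was at 31.0 and 35.2 CPM in WT, 26.7 and 24.1 CPM in H19Ter/H19Ter, and 18.3, 17.0 and 13.3 CPM in H19Ter+neo/H19Ter+neo. The groups did not overlap, but only H19Ter+neo/H19Ter+neo passed, at -1.04 (standard error 0.13, limma adjusted p = 0.000135), and the value in H19Ter/H19Ter was -0.38 (standard error 0.14, limma adjusted p = 0.0768). Zwilch, a subunit of the complex that brings dynein to kinetochores, was at 121 and 139 CPM in WT, 92.6 and 94.2 CPM in H19Ter/H19Ter, and 83.3, 73.0 and 70.0 CPM in H19Ter+neo/H19Ter+neo. It was lower in both mutants, at -0.47 (standard error 0.10, limma adjusted p = 0.00736) and -0.78 (standard error 0.09, limma adjusted p = 6.41e-05). Cdc20, the activator of the anaphase-promoting complex and, with Mad2l1, at the highest level per length of this group, was at 71.9 and 73.3 CPM in WT, 62.6 and 64.0 CPM in H19Ter/H19Ter, and 43.7, 47.3 and 41.7 CPM in H19Ter+neo/H19Ter+neo. H19Ter/H19Ter lay just below WT and H19Ter+neo/H19Ter+neo well below both. The differences were -0.20 (standard error 0.08, limma adjusted p = 0.0918), which did not pass, and -0.72 (standard error 0.07, limma adjusted p = 3.96e-05). Espl1 (separase) and Cdca3, which takes part in destruction of the kinase Wee1, were lower in H19Ter+neo/H19Ter+neo (-0.54 and -0.37) and did not pass in H19Ter/H19Ter (-0.09 and -0.32).

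The chromosomal passenger complex has 4 subunits, of which 3 were lower in H19Ter/H19Ter and all 4 in H19Ter+neo/H19Ter+neo. Aurkb (ENSMUSG00000020897, chromosome 11, 69045647 to 69051664, forward strand), its kinase, was at 16.4 and 19.7 CPM in WT, 12.5 and 9.80 CPM in H19Ter/H19Ter, and 8.78, 5.99 and 5.94 CPM in H19Ter+neo/H19Ter+neo. Its genotypes stood in the order WT, H19Ter/H19Ter, H19Ter+neo/H19Ter+neo without overlap. The differences of Aurkb from WT were -0.70 (standard error 0.20, limma adjusted p = 0.03) and -1.40 (standard error 0.18, limma adjusted p = 0.000159). Incenp, the scaffold of the complex, was at 76.9 and 90.9 CPM in WT, 68.7 and 61.1 CPM in H19Ter/H19Ter, and 51.6, 44.6 and 45.8 CPM in H19Ter+neo/H19Ter+neo. Its order was the same, with -0.37 (standard error 0.11, limma adjusted p = 0.0298) in H19Ter/H19Ter and -0.82 (standard error 0.10, limma adjusted p = 8.35e-05) in H19Ter+neo/H19Ter+neo. Birc5 (survivin), which binds a phosphorylated histone mark at centromeres, was at 29.4 and 30.8 CPM in WT, 22.4 and 21.8 CPM in H19Ter/H19Ter, and 21.2, 18.5 and 16.7 CPM in H19Ter+neo/H19Ter+neo. It was lower, at -0.44 (standard error 0.11, limma adjusted p = 0.0194) and -0.68 (standard error 0.10, limma adjusted p = 0.00038). Cdca8 (borealin), which has the highest level per length of the 4, was at 83.3 and 94.4 CPM in WT, 84.2 and 80.8 CPM in H19Ter/H19Ter, and 76.1, 75.8 and 71.2 CPM in H19Ter+neo/H19Ter+neo. The libraries of H19Ter/H19Ter reached into the WT range and did not pass, at -0.10 (standard error 0.08, limma adjusted p = 0.357), and those of H19Ter+neo/H19Ter+neo were lower, at -0.26 (standard error 0.07, limma adjusted p = 0.0128). Aurkb thus had both the lowest level per length of the subunits (3.83 CPM per kb, against 15.6 for Cdca8) and the largest log2 differences.

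Of 7 centromere and kinetochore genes, 5 were lower in H19Ter/H19Ter and 4 in H19Ter+neo/H19Ter+neo. Spc24 (ENSMUSG00000074476, chromosome 9, 21755442 to 21760303, reverse strand), a subunit of the Ndc80 complex that holds microtubule ends, was at 6.65 and 7.17 CPM in WT, 5.26 and 3.30 CPM in H19Ter/H19Ter, and 2.93, 2.48 and 2.62 CPM in H19Ter+neo/H19Ter+neo. The groups did not overlap, and the H19Ter/H19Ter libraries stood far apart. The differences of Spc24 were -0.72 (standard error 0.21, limma adjusted p = 0.0339) and -1.36 (standard error 0.20, limma adjusted p = 0.000278). Cenpa (ENSMUSG00000029177, chromosome 5, 30666777 to 30674830, forward strand), the histone H3 variant that marks the centromere, was at 59.4 and 65.2 CPM in WT, 39.2 and 37.2 CPM in H19Ter/H19Ter, and 36.7, 34.7 and 28.5 CPM in H19Ter+neo/H19Ter+neo. Both mutants were below WT. Cenpa was lower, at -0.70 (standard error 0.12, limma adjusted p = 0.00303) and -0.91 (standard error 0.11, limma adjusted p = 8.27e-05). Cenpf, a large protein of the outer kinetochore, was at 891 and 983 CPM in WT, 699 and 724 CPM in H19Ter/H19Ter, and 676, 609 and 682 CPM in H19Ter+neo/H19Ter+neo. It was lower in both, at -0.40 (standard error 0.07, limma adjusted p = 0.00499) and -0.52 (standard error 0.07, limma adjusted p = 0.00015). The 4 subunits of the Ndc80 complex did not move alike. Nuf2 was lower in both mutants (-0.58 and -0.63). Spc25 was lower in H19Ter/H19Ter (-0.48) and did not pass in H19Ter+neo/H19Ter+neo (-0.17). Ndc80 itself, at 81.9 and 79.7 CPM in WT, 70.5 and 80.9 CPM in H19Ter/H19Ter, and 85.6, 82.7 and 86.7 CPM in H19Ter+neo/H19Ter+neo, passed in neither (-0.10 (standard error 0.08, limma adjusted p = 0.384) and 0.07 (standard error 0.07, limma adjusted p = 0.414)). Cenpe, a kinetochore motor, did not pass in either mutant (-0.12 and -0.17).

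All 5 spindle motor and assembly genes were lower in both mutants. Prc1 (ENSMUSG00000038943, chromosome 7, 80294450 to 80316259, forward strand), which bundles the antiparallel microtubules of the midzone, was at 108 and 125 CPM in WT, 88.2 and 77.4 CPM in H19Ter/H19Ter, and 68.4, 56.3 and 54.5 CPM in H19Ter+neo/H19Ter+neo. Its genotypes did not overlap. Prc1 was lower, at -0.49 (standard error 0.12, limma adjusted p = 0.0154) and -0.97 (standard error 0.11, limma adjusted p = 6.78e-05). Kif2c, which depolymerises microtubules at centromeres, was at 68.9 and 79.7 CPM in WT, 58.7 and 57.2 CPM in H19Ter/H19Ter, and 50.8, 44.1 and 40.1 CPM in H19Ter+neo/H19Ter+neo. It followed the same order, with -0.36 (standard error 0.11, limma adjusted p = 0.0411) and -0.73 (standard error 0.10, limma adjusted p = 0.000235). Kif11, the motor that pushes spindle poles apart and the one with the highest level per length of this group, was at 138 and 157 CPM in WT, 108 and 110.5 CPM in H19Ter/H19Ter, and 119, 93.3 and 92.9 CPM in H19Ter+neo/H19Ter+neo. The mutants overlapped each other and lay below WT, at -0.43 (standard error 0.11, limma adjusted p = 0.0224) and -0.54 (standard error 0.10, limma adjusted p = 0.00156). Kif4, a chromosome-associated kinesin on the X chromosome, and Tpx2, a spindle assembly factor that activates Aurora A, differed by -0.32 and -0.41 in H19Ter/H19Ter and by -0.49 and -0.40 in H19Ter+neo/H19Ter+neo.

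Of the 5 cytokinesis genes, 1 was lower in each mutant, and 1 was higher in H19Ter/H19Ter and 2 higher in H19Ter+neo/H19Ter+neo. Of the 11999 genes at or above the level of the lowest member, 16.2% were lower and 11.5% higher in H19Ter/H19Ter. In H19Ter+neo/H19Ter+neo 36.0% were lower and 22.9% higher. With 5 genes the counts cannot be told from those shares. Their median log2 difference was -0.04 in H19Ter/H19Ter and 0.03 in H19Ter+neo/H19Ter+neo, while the medians of the other 7 roles lay between -0.48 and -0.22 in H19Ter/H19Ter and between -0.75 and -0.31 in H19Ter+neo/H19Ter+neo. The difference between roles was not tested. Prc1 and the chromosomal passenger complex, which also act at the midzone, were counted in other roles. Anln (ENSMUSG00000036777, chromosome 9, 22332012 to 22389188, reverse strand), which encodes anillin, a scaffold of the contractile ring, was at 248 and 249 CPM in WT, 375 and 350.2 CPM in H19Ter/H19Ter, and 419, 444 and 377 CPM in H19Ter+neo/H19Ter+neo. All mutant libraries were above both WT libraries. Anln rose by 0.55 (standard error 0.08, limma adjusted p = 0.0017) and 0.73 (standard error 0.07, limma adjusted p = 3.37e-05). Kif20a, a midzone kinesin, was at 147 and 169 CPM in WT, 115 and 111 CPM in H19Ter/H19Ter, and 136, 116 and 111 CPM in H19Ter+neo/H19Ter+neo. It was lower in both mutants, at -0.48 (standard error 0.10, limma adjusted p = 0.00799) and -0.38 (standard error 0.09, limma adjusted p = 0.00503). Kif23, the kinesin of the centralspindlin complex, was higher in H19Ter+neo/H19Ter+neo (0.31) and did not pass in H19Ter/H19Ter (0.22). Its partner Racgap1 did not pass in either (-0.04 and 0.03), nor did Ect2, the exchange factor that activates RhoA at the division plane (-0.24 and -0.22).

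Of the 7 genes of condensin and mitotic chromosome structure, 4 were lower in H19Ter/H19Ter and 5 in H19Ter+neo/H19Ter+neo. Mki67 (ENSMUSG00000031004, chromosome 7, 135689784 to 135716361, reverse strand), which encodes Ki-67, the protein that coats mitotic chromosomes and serves as a marker of cycling cells, had the lowest log2 differences of all members in both mutants. It was at 202 and 264 CPM in WT, 128 and 97.7 CPM in H19Ter/H19Ter, and 97.9, 54.5 and 70.3 CPM in H19Ter+neo/H19Ter+neo. Every mutant library was below both WT libraries, and the libraries of one genotype differed widely. The differences were -1.05 (standard error 0.23, limma adjusted p = 0.0102) and -1.68 (standard error 0.21, limma adjusted p = 0.000124). In H19Ter/H19Ter its call was lost without WT replicate 2 and without replicate 4, and it was kept in H19Ter+neo/H19Ter+neo without each library in turn. Top2a, the topoisomerase that untangles chromosomes, was at 376 and 444 CPM in WT, 349 and 315 CPM in H19Ter/H19Ter, and 344, 258 and 309.6 CPM in H19Ter+neo/H19Ter+neo. It passed only in H19Ter+neo/H19Ter+neo, at -0.44 (standard error 0.11, limma adjusted p = 0.00757), and was at -0.30 (standard error 0.12, limma adjusted p = 0.0956) in H19Ter/H19Ter. Smc4, a core condensin subunit with the highest level per length of the group, was at 269 and 299 CPM in WT, 239 and 236 CPM in H19Ter/H19Ter, and 255, 213 and 218 CPM in H19Ter+neo/H19Ter+neo, with -0.26 (standard error 0.09, limma adjusted p = 0.0588), which did not pass, and -0.31 (standard error 0.08, limma adjusted p = 0.00793). Smc2, its partner, was lower in both (-0.38 and -0.41). The other condensin I subunits differed from each other. Ncapd2 was at 197 and 199 CPM in WT, 121 and 141 CPM in H19Ter/H19Ter, and 171, 167 and 175 CPM in H19Ter+neo/H19Ter+neo, lower, at -0.60 (standard error 0.08, limma adjusted p = 0.001) in H19Ter/H19Ter and by -0.21 (standard error 0.07, limma adjusted p = 0.0268) in H19Ter+neo/H19Ter+neo, where the call was lost without either WT library, without H19Ter+neo/H19Ter+neo replicate 6, with the GC and length trend removed and with no mean-variance trend. Ncapg was lower in H19Ter/H19Ter (-0.20) and did not pass in H19Ter+neo/H19Ter+neo (0.07), and Ncaph did not pass in either (0.03 and 0.05).

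**Figure D3:**
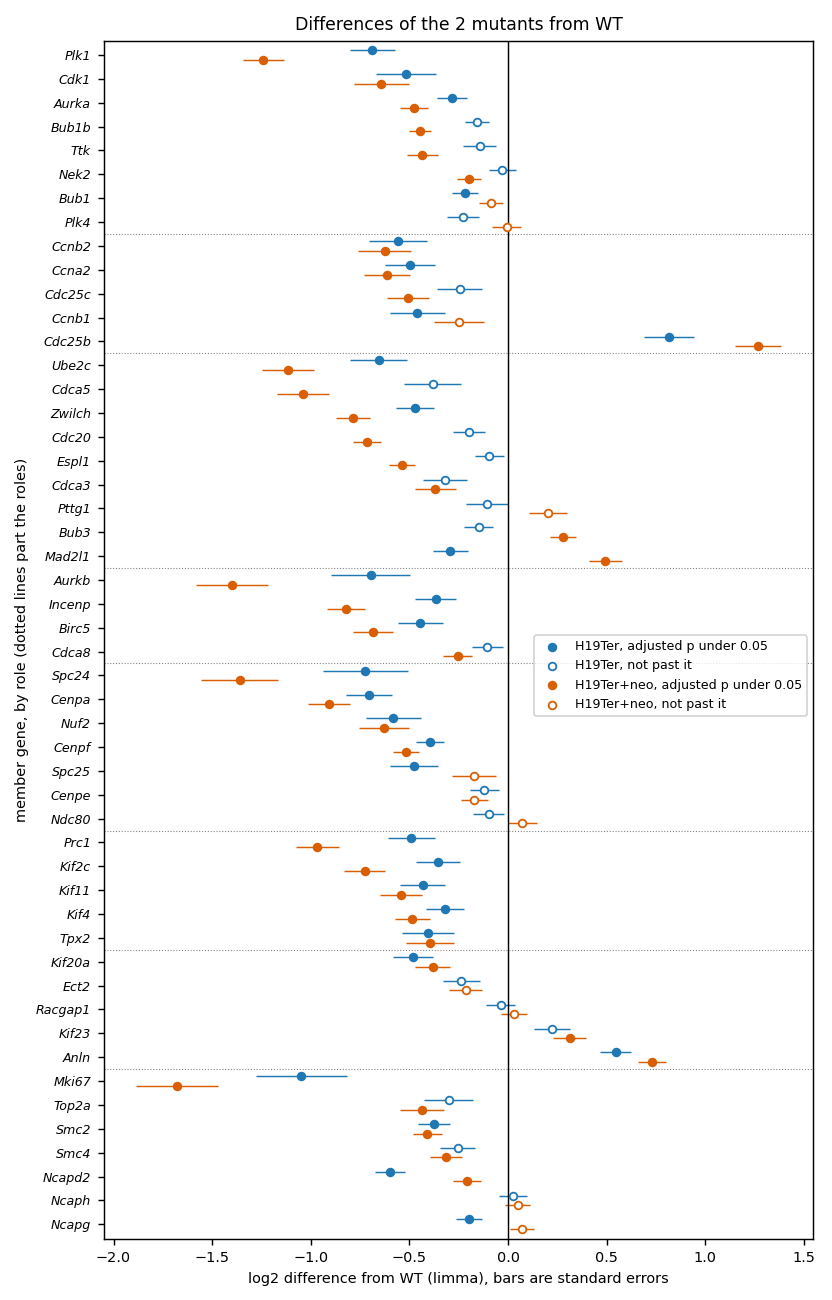
Log2 difference of each member from WT with its standard error, for H19Ter/H19Ter (blue) and H19Ter+neo/H19Ter+neo (orange), by role; filled points have an adjusted p under 0.05 and open points do not. Most points lie left of 0; Cdc25b and Anln are filled and right of it in both mutants, and Kif23, Bub3 and Mad2l1 in H19Ter+neo/H19Ter+neo.

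**Figure D4:**
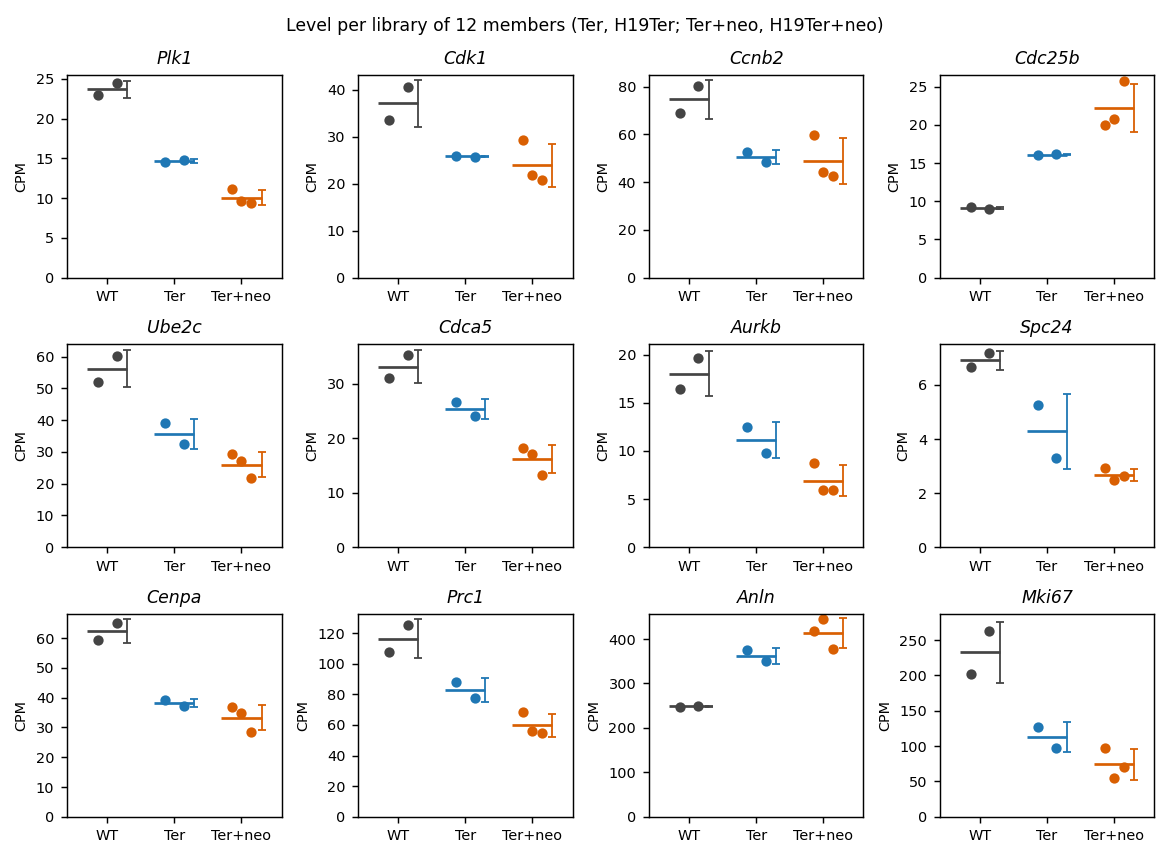
CPM of 12 members in each library, with the mean (line) and SD (bar) of each genotype, on axes that start at 0. Plk1, Ube2c, Cdca5, Aurkb, Spc24, Cenpa and Prc1 fall stepwise from WT to H19Ter/H19Ter to H19Ter+neo/H19Ter+neo without overlap. Cdc25b and Anln rise in the same steps. The step of Cdca5 from WT to H19Ter/H19Ter did not pass the test, nor did those of Cenpa and Anln between the mutants. The share of all genes with such an order is not given here.

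H19Ter+neo/H19Ter+neo was next compared with H19Ter/H19Ter, the allele with the Pgkneo cassette beside the allele without it. Depth ran with the allele, at 84.1 to 87.3 M read pairs against 51.2 and 37.5 M, and H19Ter came from the Hprt-Cre cross. The design does not separate these from the allele. In this comparison 21 of the 50 members passed, 14 lower and 7 higher. Of all genes, 15.2% were called lower and 12.5% higher. Of the 11999 genes at or above the level of the lowest member, 20.4% were lower and 15.5% higher. The median log2 difference was -0.11. Lower in H19Ter+neo/H19Ter+neo were Plk1 (-0.55), Ttk (-0.29), Bub1b (-0.29), Cdc20 (-0.52), Ube2c (-0.46), Espl1 (-0.44), Cdca5 (-0.66), Zwilch (-0.31), Aurkb (-0.70), Incenp (-0.46), Spc24 (-0.64), Kif2c (-0.37), Prc1 (-0.48) and Mki67 (-0.63). Higher were Mad2l1 (0.78), Cdc25b (0.45), Bub3 (0.43), Ncapd2 (0.39), Pttg1 (0.31), Ncapg (0.27) and Plk4 (0.22). By role, 8 of the 9 checkpoint, anaphase and cohesion genes passed, 5 lower and 3 higher, and none of the 5 cytokinesis genes did. The count fell without H19Ter/H19Ter replicate 3 and without replicate 4, as did calls over all genes, while the median stayed at -0.11. Without a mean-variance trend 9 members passed, and calls over all 20643 genes went from 5717 to 3820. Plk1, Cdc20, Espl1, Mad2l1, Bub3 and Ncapd2 kept their calls with every library left out in turn. Across 14190 genes with a mean log2 CPM above 1, the difference between the mutants ran with GC content (Spearman's rho -0.34, across genes, which are not independent replicates). With the GC and length trend removed 18 members passed, 13 lower and 5 higher, beside 5032 of 20610 genes. With all libraries thinned to the shallowest, 20 members passed, 14 lower and 6 higher, beside 5265 of 20643 genes.

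2 members of the checkpoint rose in H19Ter+neo/H19Ter+neo, where the other called genes of their group fell. Mad2l1, the protein that binds Cdc20 at unattached kinetochores, was at 221 and 242 CPM in WT, 193 and 184 CPM in H19Ter/H19Ter, and 360.2, 323 and 294 CPM in H19Ter+neo/H19Ter+neo. H19Ter/H19Ter was lowest and H19Ter+neo/H19Ter+neo highest, without overlap. Mad2l1 was lower, at -0.29 (standard error 0.09, limma adjusted p = 0.0392) in H19Ter/H19Ter, a call that was lost without any 1 of the 4 WT and H19Ter/H19Ter libraries and without H19Ter+neo/H19Ter+neo replicate 6, and higher by 0.49 (standard error 0.08, limma adjusted p = 0.000688) in H19Ter+neo/H19Ter+neo. The direct difference of both mutants was 0.78 (standard error 0.08, limma adjusted p = 0.000206). Bub3, which carries Bub1 and Bub1b to kinetochores, was at 103 and 110.3 CPM in WT, 99.1 and 93.4 CPM in H19Ter/H19Ter, and 133, 133 and 122 CPM in H19Ter+neo/H19Ter+neo. It did not pass in H19Ter/H19Ter at -0.15 (standard error 0.07, limma adjusted p = 0.163) and was higher by 0.28 (standard error 0.07, limma adjusted p = 0.00566) in H19Ter+neo/H19Ter+neo, with a direct difference of 0.43 (standard error 0.07, limma adjusted p = 0.00159). Cdc20, their common target, was lower in the same libraries. Pttg1 (securin), the inhibitor of separase, passed in neither mutant against WT (-0.11 and 0.20).

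Libraries of 1 genotype differed along the same genes. WT replicate 2 was above WT replicate 1 for 48 of the 50 members, against 52.6% of all genes, by a median of 0.13 on the log2 scale and at most 0.38, in Mki67. Of the 3 H19Ter+neo/H19Ter+neo libraries, replicate 5 was highest for 33 of the 50, against 34.5% of all genes, and it exceeded the mean of replicates 6 and 7 by a median of 0.19 and by 0.66 in Mki67. The H19Ter/H19Ter libraries showed no such order, with replicate 3 above replicate 4 for 26 of the 50, against 50.6% of all genes. Across the 50 members, the difference between the WT libraries and that between replicate 5 and the other 2 ran together (Spearman's rho 0.69), as it did less steeply across the 11999 genes at or above the level of the lowest member (rho 0.45). The members lowest in H19Ter/H19Ter relative to WT were also those in which replicate 5 most exceeded replicates 6 and 7 (rho -0.72 across the 50 members and -0.53 across the 11999 genes), a comparison in which no library is used on both sides. These are descriptions across genes measured in the same libraries. The median log2 difference of the members from the WT mean was -0.33 in replicate 5, -0.49 in replicate 6 and -0.45 in replicate 7, against -0.07 and 0.07 in the WT libraries. Replicate 5 also held more of the Leydig enzyme transcripts than replicates 6 and 7, and more of most interstitial and peritubular marker transcripts. Of those, Ptch1, Pdgfrb and Myh11 were not highest in replicate 5. Cyp17a1, a steroidogenic enzyme of Leydig cells, was at 3.24 and 4.74 CPM in WT, 8.40 and 2.14 CPM in H19Ter/H19Ter, and 10.4, 1.40 and 0.649 CPM in H19Ter+neo/H19Ter+neo. The interstitial collagen gene Col1a2 was at 7.10 and 10.8 CPM in WT, 20.6 and 6.73 CPM in H19Ter/H19Ter, and 14.5, 3.65 and 2.44 CPM in H19Ter+neo/H19Ter+neo. H19Ter/H19Ter replicate 3 was thus also above replicate 4 for Cyp17a1 and Col1a2. The part of testicular somatic cells in the levels of the members was not tested.

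**Figure D5:**
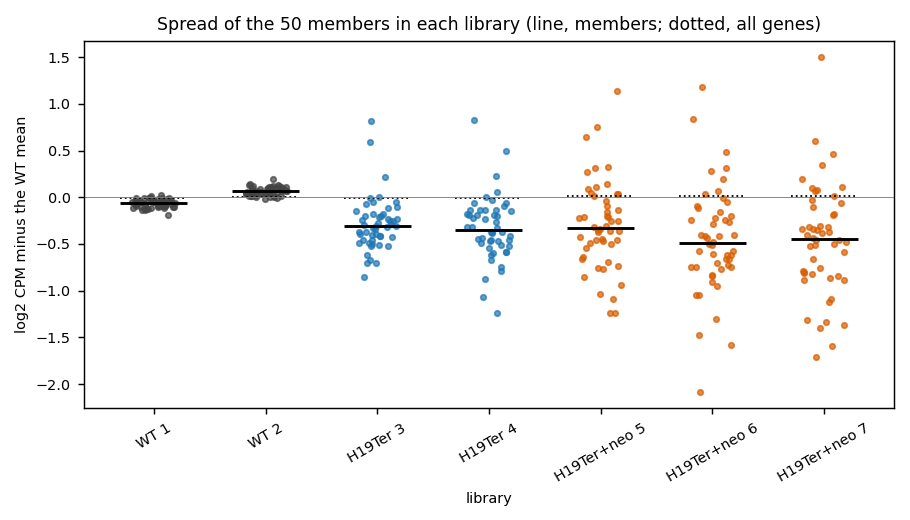
Log2 CPM minus the WT mean for each of the 50 members (points) in each of the 7 libraries, with the median of the members (solid line) and of all genes (dotted line). The median of the members is -0.07 and 0.07 in the WT libraries and lies between -0.49 and -0.31 in the 5 mutant libraries, while the median of all genes stays near 0.

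A wider list of 114 other mitosis genes, of which 112 had a value, was counted beside the members. In H19Ter/H19Ter 30 of the 112 were lower and none higher (median log2 difference -0.19), and in H19Ter+neo/H19Ter+neo 58 were lower and 11 higher (median -0.23). In percent, 26.8% were lower in H19Ter/H19Ter, where 16.2% of the 11999 genes at or above the level of the lowest member were, and 51.8% in H19Ter+neo/H19Ter+neo, where 36.0% were. None was higher in H19Ter/H19Ter, where 11.5% of the 11999 were, and 9.8% were higher in H19Ter+neo/H19Ter+neo, where 22.9% were. The 112 genes were counted without that cut on level. In H19Ter+neo/H19Ter+neo against H19Ter/H19Ter, 24 were lower (21.4%) and 19 higher (17.0%), near the 20.4% and 15.5% of those 11999 genes. The largest differences in H19Ter/H19Ter were those of Haus4, a subunit of the augmin complex that nucleates spindle microtubules (-0.76 (standard error 0.14, limma adjusted p = 0.0057)), of Fbxo5, an inhibitor of the anaphase-promoting complex (-0.75 (standard error 0.12, limma adjusted p = 0.00237)), of the centromere protein gene Cenpm (-0.59 (standard error 0.16, limma adjusted p = 0.0262)) and of Cdc27, a core subunit of the anaphase-promoting complex (-0.57 (standard error 0.10, limma adjusted p = 0.00334)). In H19Ter+neo/H19Ter+neo they were those of Mybl2, a transcription factor that works with MuvB on mitotic promoters (-1.17 (standard error 0.10, limma adjusted p = 1.69e-05)), of Pbk, a mitotic kinase, which rose (0.88 (standard error 0.06, limma adjusted p = 8.49e-06)), of Mad1l1, the kinetochore partner of Mad2l1 (-0.84 (standard error 0.10, limma adjusted p = 8.15e-05)), and of Cdc26, a small subunit of the anaphase-promoting complex (-0.72 (standard error 0.09, limma adjusted p = 0.000142)). Mybl2 was at 62.3 and 73.1 CPM in WT, 53.2 and 50.2 CPM in H19Ter/H19Ter, and 33.2, 29.3 and 27.6 CPM in H19Ter+neo/H19Ter+neo, with the 3 genotypes in the same order as Plk1 and Aurkb. Mad1l1 was at 39.8 and 36.7 CPM in WT, 38.2 and 34.9 CPM in H19Ter/H19Ter, and 21.0, 23.6 and 19.4 CPM in H19Ter+neo/H19Ter+neo. It overlapped WT in H19Ter/H19Ter and was below it in H19Ter+neo/H19Ter+neo, the libraries in which Mad2l1 was highest.

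Some members share exon sequence with a gene on the opposite strand. The share of exon bases was 29.3% for Kif20a (with Cdc23), 22.8% for Ube2c (with Tnnc2), 15.1% for Kif4 (with Pdzd11), 13.4% for Ncapg (with Lcorl), 12.7% for Cdc25c (with Gm3550), 12.5% for Ccna2 (with Exosc9) and 11.1% for Prc1 (with Rccd1). The libraries were directional, but the sources used here do not say which strand was counted, and the values of these genes are uncertain to that extent. On the same strand, Ncapd2 shares 237 exon bases (3.78%) with Scarna10 and Gm28967, and Top2a shares 122 (1.35%) with Gm23451, an overlap that holds whichever strand was counted.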

How the data were processed

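Total RNA of FACS-sorted EGFP+ germ cells was depleted of ribosomal RNA and sequenced as directional 50-bp pairs. Per the labels and the methods, the authors trimmed adapters with Trim Galore 0.6.0, and STAR 2.7.8 aligned the pairs to mm10 and counted those in genes. The sources used here name neither the annotation release nor the strand column. The deposited values are log2 CPM with a prior count of 2 reads on average, and undoing the log gave whole read pairs for 100% of values within 1e-06 of a read, 37.5 to 87.3 M per library. The log2 values as deposited were tested.

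The 20643 genes of all 7 libraries were fitted with limma 3.58.1 (R 4.3.3), with genotype as the only factor, 1 estimate of spread for the 3 genotypes and a mean-variance trend. Each of the 3 comparisons was tested two-sided, p-values were adjusted over all genes by Benjamini-Hochberg, and calls were made at an adjusted p under 0.05. Fold changes are on the log2(CPM + prior) scale, which understates those of low genes. Coordinates, exon lengths and overlaps come from GENCODE vM21 on GRCm38, which holds 20615 of the IDs, and promoters from RefSeq.

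The members, roles, lists and alternatives were chosen with earlier results of these data known. Values in every library are given for the called members with the largest difference from WT (at most 2 per role and mutant) and for the member of each role with the highest level per length. Of the other mitosis genes, the 4 with the largest called difference in each mutant at a mean log2 CPM of at least 1 are named. Mad2l1, Bub3, Pttg1, Ncapg and Ndc80 are given by library beyond that rule, and the markers Dnmt3l, Piwil4, Nanos2, Cyp17a1 and Col1a2 were chosen after their values were seen. Missing from the table are the other mitosis genes Hjurp and Lin54, the Sertoli markers Fshr and Gata1, the Leydig markers Hsd3b6 and Insl3, the endothelial marker Esam, and leukocyte and erythroid markers. Alternatives were pseudocounts of 0.1 and 1, filters at 1 and 0.1 CPM in 2 libraries, 2 scalings, fits of 2 groups, each library left out, voom on the recovered reads, thinning to the shallowest library, removal of the GC and length trend, and no mean-variance trend. Figures were drawn with matplotlib 3.10.9.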

Additional observations from a re-analysis of the deposited data

Results flagged for a closer look

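In 4 members the effects of both mutants had opposite signs and the difference between the mutants itself passed the limma test. The share of all genes that meet both conditions is not given here. In the direct comparison 7 of the 50 members were called higher. The shares called higher were 12.5% of all genes and 15.5% of the 11999 genes at or above the level of the lowest member. Mad2l1, which binds Cdc20 in the spindle checkpoint, was 0.78 higher on the log2 scale in H19Ter+neo/H19Ter+neo than in H19Ter/H19Ter (adjusted p = 0.000206), with -0.29 and 0.49 against WT. Bub3 was 0.43 higher (adjusted p = 0.00159), with -0.15 and 0.28 against WT. Both kept the difference with each library left out in turn. Pttg1, which encodes securin, was at 42.8 and 47.5 CPM in WT, 41.5 and 42.1 CPM in H19Ter/H19Ter, and 56.1, 54.6 and 45.5 CPM in H19Ter+neo/H19Ter+neo. It was 0.31 higher in H19Ter+neo/H19Ter+neo than in H19Ter/H19Ter (adjusted p = 0.037), and was no longer called without replicate 3 or 4 of H19Ter/H19Ter or replicate 5 or 6 of H19Ter+neo/H19Ter+neo. Ncapg, a condensin I subunit, was at 218 and 220.4 CPM in WT, 190.0 and 192 CPM in H19Ter/H19Ter, and 242, 217 and 232 CPM in H19Ter+neo/H19Ter+neo. Its difference was 0.27 (adjusted p = 0.00839), lost without replicate 3 (adjusted p = 0.0729) or replicate 4 (adjusted p = 0.0573) of H19Ter/H19Ter. The other 46 members either had the same sign in both mutants or did not pass in the direct comparison.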

How the results depend on the processing

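No paired analysis was possible because the labels number the libraries from 1 to 7 and no number is shared between genotypes. With each library left out in turn, the members called ranged from 5 to 36 in H19Ter/H19Ter against WT, from 30 to 42 in H19Ter+neo/H19Ter+neo against WT and from 7 to 21 between the mutants. Their median log2 differences ranged from -0.41 to -0.25, from -0.49 to -0.33 and from -0.17 to -0.06. Where a group was left with 1 library, that library was assumed to vary like the others, and calls over all genes were fewer in each such fit. Without a mean-variance trend the members called were 5, 33 and 9 in the same order, 28 of the 33 lower, and with voom on the recovered reads they were 20, 39 and 18. Calls over all 20643 genes were 5187, 11231 and 5717 as fitted. They were 2858, 10113 and 3820 without the trend, and 3092, 10663 and 5214 with voom. Scaling every library to the same total moved the median in H19Ter/H19Ter to -0.24, while the median of all genes went from -0.01 to 0.07. Under it 72.5% of calls over all genes in H19Ter/H19Ter against WT were higher, against 56.2% as fitted, and 32.0% between the mutants, against 45.3%. Members called were then 21 in H19Ter/H19Ter (18 lower), 40 in H19Ter+neo/H19Ter+neo and 24 between the mutants. No called member changed direction under any alternative run. Of the named members that were not called, Bub1 between the mutants reversed to -0.0318 with the GC and length trend removed, and Ccnb2 between the mutants ranged from -0.223 to 0.0257 with each library left out, reversed without H19Ter+neo/H19Ter+neo replicate 7. The causes were not tested. The filter of 0.1 CPM removed no gene. With 2 libraries in each of 2 genotypes, the smallest difference that the fit could call depended on the gene.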
